A study of Homo sapiens with 6 samples.

Results

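Cytosolic ribosomal proteins build the 2 subunits of the ribosome that translates nuclear-encoded messages. The genes were chosen by symbol from the table of raw read counts: RPL or RPS followed by a number and at most 1 letter A, L or X, the acidic stalk genes RPLP0, RPLP1 and RPLP2, and RPSA, with pseudogenes, kinases and Y-linked names left out. This gave 80 of 25330 gene symbols. The libraries came from MDA-MB-231, an established triple-negative breast cancer line with mesenchymal features, without treatment. The labels give 2 genotypes, CTRV2 control and RNASEH2A KO, with 3 libraries each from different passages of cells grown in RPMI-1640 with 10% serum, 1 batch label for all, and an RNA integrity number of at least 7.0. RNASEH2A encodes the catalytic subunit of RNase H2, which removes ribonucleotides from DNA and cuts RNA in RNA-DNA hybrids, and the series title asks about replication stress, DNA damage and antitumour immunity. The sources used here do not say whether the knockout cells are 1 clone or a pool, and the p-values below rest on the spread between passages of 1 knockout line.

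RNASEH2A itself was counted at 6 to 15 reads in control and 7 to 16 in knockout libraries, so its count does not check the labels, and every direction below rests on them. Library totals ran from 25419877 to 31596286 counts. Of the markers of the line, VIM, CD44, AXL and CAV1 summed to 4640 to 5197 CPM (counts scaled to library size with edgeR's TMM factors). Of the receptor and epithelial markers, ESR1 had no count, while EPCAM had 388 to 617 counts and CDH1 6 to 68 counts per library. PGR had 0 to 2 counts in the control libraries and 8 to 12 in the knockout libraries. Knockout replicate 1 stood apart from knockout replicates 2 and 3 at the ribosomal protein genes, as described below, so results are given with and without it.

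Ribosomal protein genes are among the most strongly transcribed genes of a growing cell, and their products are needed in equal amounts. Their messages usually begin with a C followed by an unbroken run of C and T, the 5' terminal oligopyrimidine (TOP) tract, through which mTORC1 and LARP1 control their translation together. Free RPL5 and RPL11 can bind MDM2 when ribosome assembly is disturbed, and loss of 1 copy of RPS19 or several other members causes Diamond-Blackfan anaemia.

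The transcript starts of 7 members that fell in the knockout, together with RPL13, which lay above the controls in 2 knockout libraries, and the paralog RPS27L, are shown because the tract is the feature that most members share. Sequences are from RefSeq on GRCh38.p14, given 5' to 3' on the transcribed strand from 10 bases before to 20 bases from the start, and capitals mark the C and T run that begins at the start. RPL11 and RPL13 have more than 1 listed start, and the one with the tract is shown. No start was matched for RPL5 and RPS15A.
RPL11, chr1:23691796-23691825, plus strand: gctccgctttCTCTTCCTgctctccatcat
RPL12, chr9:127451387-127451416, minus strand: cgatttccggCCTCTCggctttcggctcgg
RPL22, chr1:6199576-6199605, minus strand: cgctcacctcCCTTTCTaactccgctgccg
RPL35, chr9:124861938-124861967, minus strand: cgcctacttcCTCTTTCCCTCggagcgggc
RPL7A, chr9:133348208-133348237, plus strand: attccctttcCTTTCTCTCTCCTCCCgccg
RPLP2, chr11:809957-809986, plus strand: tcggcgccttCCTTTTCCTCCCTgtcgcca
RPS12, chr6:132814559-132814588, plus strand: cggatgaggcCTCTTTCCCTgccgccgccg
RPL13, chr16:89560672-89560701, plus strand: gggccgcttcCTTTCCgctcggctgttttc
RPS27L, chr15:63157458-63157487, minus strand: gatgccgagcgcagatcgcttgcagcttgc
The last line, for the paralog RPS27L, begins with G and holds no tract.

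Of the 80 members 63 matched the promoter table, and 46 of these (73.0%) had a listed start with a C followed by C or T to a run of at least 5, read on the transcribed strand only. The same held for 748 of 10971 other tested genes (6.82%) and for 1404 of all 27305 genes in the table (5.14%). The exact letters CTCTTT opened 9 of the 63 members and 74 of the 27305 genes. The 46 with a tract had a median log2 fold change (knockout minus control) of -0.11 and the 17 without had -0.08. Of the 46 with a tract 7 fell, of the 17 without none did, and the difference between the 2 sets was not tested. The share of all tested genes called lower was 6.22%, and at that share a set of 17 can easily hold no call. The other members called lower had no matched start. In knockout replicate 1 the medians of their deviations were -0.21 and -0.23.

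As a group the ribosomal protein genes were low in 1 knockout library and near the control level in the other 2. The summed counts of the 80 genes made up 3.64%, 3.63% and 3.63% of control libraries 1 to 3, and 3.06%, 3.61% and 3.54% of knockout libraries 1 to 3. Knockout replicate 1 was thus the low library, and the other 2 knockout libraries lay just under the controls. In bulk RNA a level that is lower in every cell and one that is lower in part of the cells cannot be told apart.

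Gene by gene, the deviation of a library is its log2 CPM minus that gene's mean over the 6 libraries. Over the 79 members with enough counts to be tested the median deviation was 0.06, 0.06 and 0.05 in control replicates 1, 2 and 3, -0.21 in knockout replicate 1, 0.04 in knockout replicate 2 and 0.02 in knockout replicate 3. All tested genes had medians from 0.0028 to 0.013 in the same libraries. Knockout replicate 1 was below the gene's mean at 78 of 79 members and was the lowest of the 6 libraries at 73. Its middle 50% of deviations ran from -0.25 to -0.18, so the shift was of like size in most members. The smallest shifts among the 78 belonged to RPS27L (-0.06) and RPS28 (-0.08), and RPL36A, at 0.14 and with under 40 reads in each library, was the exception.

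**Figure D1:**
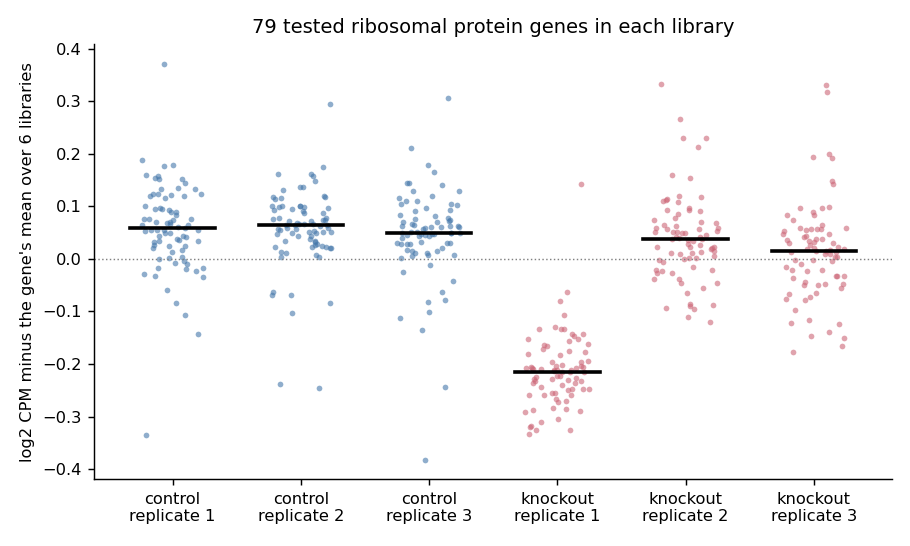
Deviation of each of 79 ribosomal protein genes in each of the 6 libraries, as log2 CPM minus the gene's mean over all libraries (y axis), with controls in blue, knockouts in red and black bars at the medians. The cloud of knockout replicate 1 sits at a median of -0.21, and the other 5 libraries have medians between 0.02 and 0.06.

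In knockout replicates 2 and 3 members lay on both sides of the control range. Knockout replicate 2 was below all 3 controls at 37 of 79 members and above all 3 at 24, and knockout replicate 3 was below at 44 and above at 19. Knockout replicate 1 was below all 3 controls at 74 and above at 1. Over all 14199 tested genes, 35.5% were below all controls and 35.2% above in knockout replicate 2, 35.5% and 34.7% in knockout replicate 3, and 36.3% and 35.9% in knockout replicate 1. In knockout replicates 2 and 3 the members thus lay more often below the control range than above it, while all tested genes were split nearly evenly. Both knockout replicates 2 and 3 lay within the control range at 8 members.

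Knockout replicate 1 was also the deepest library, at 31596286 counts. In it, tested genes outside the list with a transcript under 1 kb had a median deviation of -0.02, those of 1 to 2 kb -0.05 and those of 2 kb or more 0.03. The part of depth or transcript length in the low values was not tested. Fibroblast markers (COL1A1 and PDGFRB, 2 of 3 counted) summed to 36.3 CPM in this library against 18.4 to 26.4 in the other 5. The 2 went different ways. PDGFRB was at 27.2 CPM against 11.5 to 15.8 in the other 5. COL1A1, at 9.12 CPM, was under the controls (9.48 to 10.9) and above knockout replicates 2 and 3 (4.49 and 5.17). Leukocyte markers (3 of 5 counted) summed to 4.05 against 2.48 to 4.91, and endothelial markers (3 of 3) to 0.31 against 0.36 to 0.71. The part of such cells was not tested. PTPRC was at 0 in all 3 knockouts, CD68 in all 3 controls and knockout replicate 1, and CDH5 in every library but control replicate 1.

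By edgeR's quasi-likelihood test across all genes, with Benjamini-Hochberg adjustment, 10 of the 79 tested members fell in the knockout, 0 rose and 69 did not pass. Among all 14199 tested genes 6.22% were called lower and 5.88% higher. At an unadjusted p under 0.05, 23 members were lower and 3 higher, and neither DESeq2 nor limma-voom called a member higher. With limma on the deposited log2 CPM 0 members were called, where 2.39% of all genes were called lower and 2.46% higher. Without control replicate 1, 2 or 3 the members called lower numbered 3, 2 and 1. Without knockout replicate 2 or 3 they numbered 7 and 2, and RPL5 was among them in each of these fits. The share of all tested genes called in these fits is not given here, so these counts are not set against a background. The median log2 fold change of the members was -0.11 against 0.0036 for all tested genes, and 67 of 79 were negative against 49.4% of all. The 3 control and 3 knockout values did not overlap at 34 members that were lower and 1 that was higher, against 17.4% and 16.1% of all tested genes.

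Without knockout replicate 1 the picture split into 2 directions. That library was singled out because the members were low in it, so leaving it out moves most members upward by construction. The adjusted p-values without it, here and below, do not allow for that choice. The 10 members that had fallen all fell again, RPS27L joined them, and 5 members rose, namely RPL13, RPL39L, RPL7, RPS20 and RPS28. In that fit 12.5% of all tested genes were called lower and 11.3% higher, so the members' share of lower calls lay near the background and their share of higher calls under it. The members' median was -0.03, and 52 of 79 were negative.

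**Figure D2:**
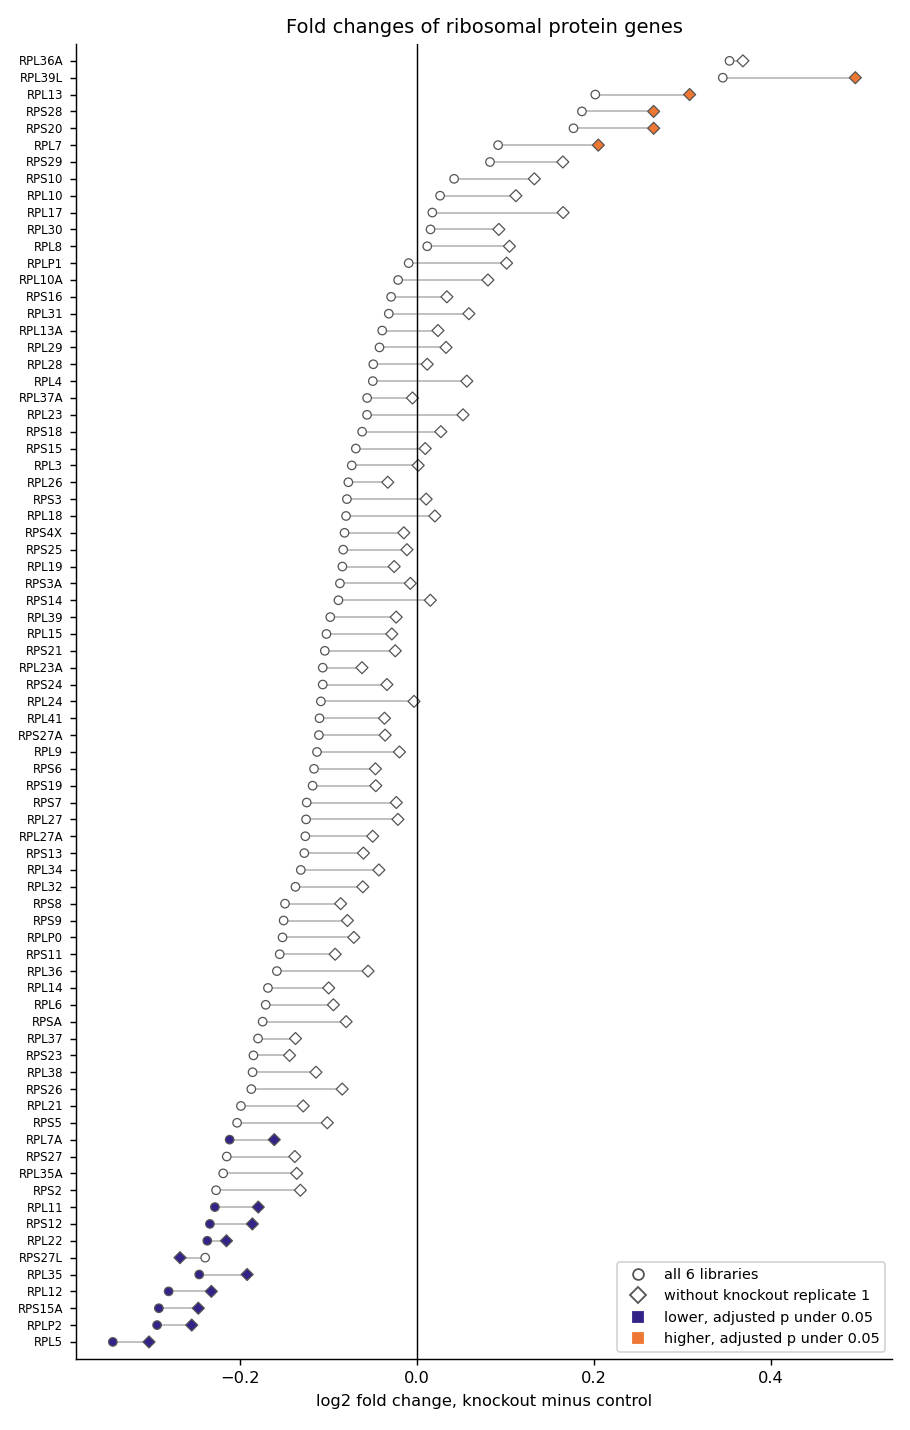
Log2 fold change of the tested ribosomal protein genes (rows, sorted; 2 of the 79 are not drawn), from all 6 libraries (circles) and without knockout replicate 1 (diamonds), filled where the adjusted p was under 0.05. With the library left out, the median of all 79 moves from -0.11 to -0.03, RPS27L joins the lower genes and 5 genes are called higher.

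Among the large subunit proteins 7 of 43 fell and 0 rose, with a median of -0.11. Calls over all 14199 tested genes were 6.22% lower and 5.88% higher, with a median of 0.0036. RPL5 (chromosome 1, 92831986 to 92841924 on GRCh38), which carries the 5S ribosomal RNA into the ribosome, stood at 704, 697 and 705 CPM in the controls and at 522, 577 and 561 in the knockouts. The 3 controls were nearly alike and all knockouts lay well under them. Its log2 fold change was -0.34 ± 0.06 SE (edgeR adjusted p = 0.00594), and -0.30 ± 0.04 without knockout replicate 1 (adjusted p = 0.00059). RPL11 (chromosome 1, 23691779 to 23696835), the partner of RPL5 in the 5S particle, stood at 407, 392 and 390.2 CPM in the controls and at 315, 349.6 and 349.7 in the knockouts. It too had no overlap, with a log2 fold change of -0.23 ± 0.06 SE (adjusted p = 0.0425).

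RPL12 (chromosome 9, 127447674 to 127451406), a protein at the base of the stalk that binds elongation factors, went from 499.8 ± 11.8 CPM (SD, n = 3) to 411 ± 24.0 (log2 fold change -0.28 ± 0.06 SE, edgeR adjusted p = 0.018). RPL35 (chromosome 9, 124857883 to 124861957), which lies near the exit of the peptide tunnel, went from 555 ± 10.3 to 468 ± 31.5 CPM (-0.25 ± 0.06 SE, adjusted p = 0.0343). RPL7A, one of the most counted members, went from 1173 ± 11.1 to 1013 ± 63.0 CPM (-0.21 ± 0.06 SE, adjusted p = 0.0469). RPL22, whose loss is known from several tumours, went from 69.9 ± 1.72 to 59.3 ± 2.33 CPM (-0.24 ± 0.07 SE, adjusted p = 0.0498). These 4 had no overlap between the groups, as did 17.4% of all tested genes in the lower direction. The adjusted p-values of RPL7A and RPL22 lie near the threshold. Of the most counted large subunit members, RPL8 was at 1110 ± 9.48 and 1119 ± 129 CPM (0.01 ± 0.08 SE, adjusted p = 0.943), and RPL3, which lies at the peptide-bond centre, was at 984 ± 13.3 and 935 ± 86.7 CPM (-0.07 ± 0.07 SE, adjusted p = 0.546). In both, knockout replicate 1 was the lowest library.

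In the stalk, the flexible arm that recruits translation factors, 1 of 3 members fell. The share of all tested genes called lower was 6.22%, and 3 genes are too few to set against it. RPLP2 (chromosome 11, 809967 to 812876) stood at 365, 372 and 368 CPM in the controls and at 284, 312 and 305 in the knockouts (edgeR log2 fold change -0.29 ± 0.06 SE, adjusted p = 0.0126). Its dimer partner RPLP1 stood at 522, 535 and 546 CPM and at 447, 591 and 555, so that knockout replicate 1 was the lowest and the other 2 knockouts were the highest of the 6 (-0.01 ± 0.09 SE, adjusted p = 0.961). RPLP0, which anchors both and had the most counts of any member, stood at 1744, 1766 and 1831 CPM and at 1419, 1739 and 1648. Its groups did not overlap by a small margin (-0.15 ± 0.07 SE, adjusted p = 0.22). Whether RPLP1 and RPLP2 differ in their fold change was not tested.

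Of the small subunit proteins 2 of 31 fell and 0 rose, with a median of -0.12. Among all tested genes 6.22% were called lower, so these lower calls lay near the background. RPS15A (chromosome 16, 18781295 to 18790334) stood at 44.8, 44.1 and 44.3 CPM in the controls and at 34.1, 39.0 and 35.8 in the knockouts (edgeR log2 fold change -0.29 ± 0.08 SE, adjusted p = 0.0414). Of its transcript, 41.5% is shared with exons of another gene on the same strand, so the split of its reads is uncertain. RPS12 stood at 359, 372 and 384 CPM and at 295, 339 and 314 (-0.23 ± 0.07 SE, adjusted p = 0.0498), again with no overlap. RPS2, at the entry of the message channel, had the most counts of this subunit and stood at 1276, 1218 and 1262 CPM and at 924, 1182 and 1102. All knockouts were under the controls, but the call was not made (-0.23 ± 0.08 SE, adjusted p = 0.113).

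Several small subunit members known from disease or signalling did not pass. RPS6, the substrate of the S6 kinases, stood at 592, 610 and 605 CPM in the controls and at 501, 587 and 579.5 in the knockouts (-0.12 ± 0.07 SE, adjusted p = 0.311). RPS19 stood at 536, 537 and 531 CPM and at 443, 516 and 518 (-0.12 ± 0.07 SE, adjusted p = 0.309). In both genes the knockouts were just under the controls in replicates 2 and 3 and well under them in replicate 1. RPS14, lost in 5q- syndrome, was at 437 ± 12.1 and 411 ± 53.1 CPM (-0.09 ± 0.09 SE, adjusted p = 0.566). RPSA, which doubles as a laminin receptor, was at 945 ± 23.7 and 837 ± 101 CPM (-0.17 ± 0.08 SE, adjusted p = 0.208). RPS27A, made as a fusion with ubiquitin, was at 421 ± 4.43 and 390.2 ± 38.9 CPM (-0.11 ± 0.08 SE, adjusted p = 0.376). The SDs of these knockout groups are several times those of the controls.

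**Figure D3:**
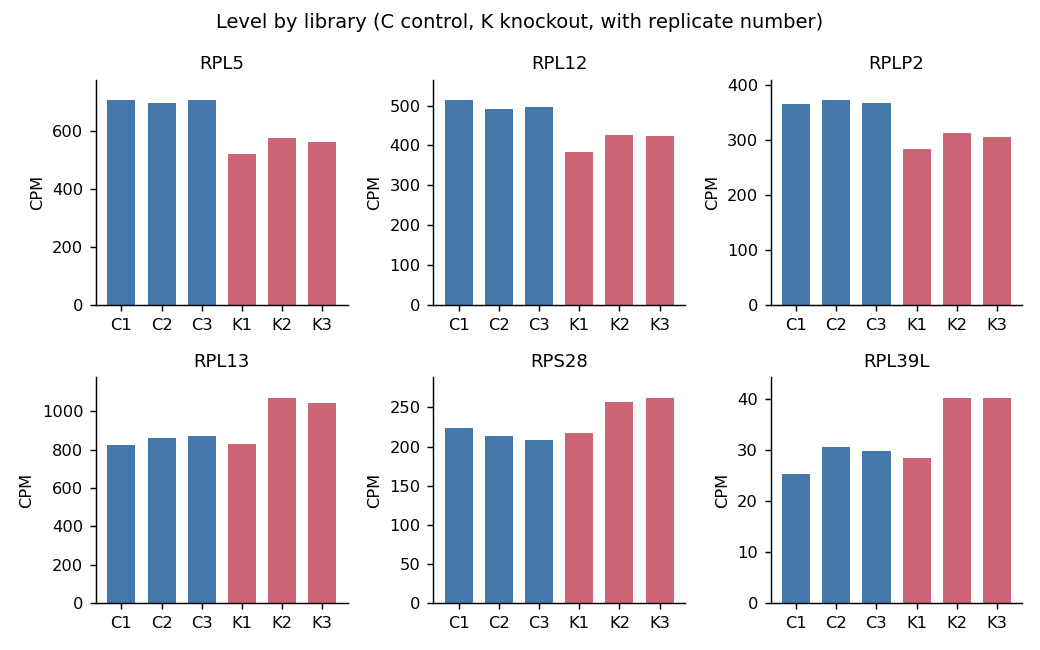
Level in CPM (y axis, from 0) of 6 ribosomal protein genes in each control (C1 to C3, blue) and knockout (K1 to K3, red) library. RPL5, RPL12 and RPLP2 are lower in all 3 knockouts, while RPL13, RPS28 and RPL39L are above the controls in K2 and K3 and within their range in K1.

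At the other end, RPL13, a large subunit member (chromosome 16, 89560657 to 89566829), stood at 825, 860.3 and 873 CPM in the controls and at 831, 1069 and 1042 in the knockouts. Knockout replicate 1 lay inside the control range and the other 2 lay above it. Its log2 fold change was 0.20 ± 0.09 SE (edgeR adjusted p = 0.18), and 0.31 ± 0.04 without knockout replicate 1 (adjusted p = 0.000538). RPS28 (chromosome 19, 8321496 to 8323340) had the same form, at 224, 214 and 209 CPM and at 217, 256 and 262 (0.19 ± 0.08 SE, adjusted p = 0.161, and 0.27 ± 0.05 with adjusted p = 0.00377 without that library). RPS20 (0.27 ± 0.05, adjusted p = 0.00239) and RPL7 (0.21 ± 0.05, adjusted p = 0.016), both on chromosome 8, also rose without it, and with it they were at 0.18 and 0.09. RPS28, RPS20 and RPL7 were picked out after their values were seen.

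The paralogs, close copies of core ribosomal proteins, did not move together. RPL39L (chromosome 3, 187120948 to 187139496), a copy of RPL39 best known from testis and some cancers, stood at 25.3, 30.5 and 29.7 CPM in the controls and at 28.5, 40.2 and 40.2 in the knockouts (0.35 ± 0.14 SE, edgeR adjusted p = 0.141, and 0.50 ± 0.09 with adjusted p = 0.00262 without knockout replicate 1). RPS27L (chromosome 15, 63148249 to 63157477), a p53-responsive copy of RPS27, stood at 44.1, 46.6 and 46.3 CPM and at 40.2, 38.7 and 37.1. All 3 knockouts were under the controls, and replicate 1 was the highest of the knockouts, unlike in most members (-0.24 ± 0.07 SE, adjusted p = 0.0648, and -0.27 ± 0.07 with adjusted p = 0.0201 without knockout replicate 1). RPL3L, a muscle form of RPL3, had 3 to 11 counts per library and was not tested. RPL10L was not analysed here.

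In 5 members at least 50% of the transcript is shared with exons of other genes on the same strand in GENCODE 29, RPL17, RPL26, RPL36A and RPS10 among them. RPL17, RPL36A and RPS10 had 23 to 78 counts per library, although their proteins are part of every ribosome, while the 72 members that are neither of these 5 nor paralogs had means from 40.4 to 1691 CPM. The values of these genes therefore say little about their messages. RPL36A, at 0.97 ± 0.10 and 1.24 ± 0.08 CPM, had the highest log2 fold change of all members (0.35 ± 0.26 SE, edgeR adjusted p = 0.425), which was -0.016 when reads of its pseudogenes were added. Those pseudogenes hold 3759 reads, 1978% of its own, so the value of -0.016 is mostly theirs. The count table holds 772 pseudogene symbols for 76 of the members, and their reads summed to 1.497% of the members' reads. Adding them to the members left the count at 10 lower and 0 higher.

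The members lie on 21 chromosomes, and their fold changes went along with those of the genes beside them. For each member the neighbour level was taken as the median log2 fold change of the 20 nearest tested genes, 10 on each side, with members left out. Across the 79 members Pearson's r between the 2 values was 0.69 and Spearman's rho 0.66. This is a description across genes that share libraries and scaling, not independent replicates. Without knockout replicate 1 in the members' values r was again 0.69.

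RPL13 and RPS28 both had neighbours at 0.35, RPL7 at 0.30 and RPS20 at 0.29, the highest neighbour levels of the list. RPL5 had neighbours at -0.26, the lowest. RPL18 on chromosome 19 shows the other side of the pattern, with neighbours at 0.24 and its own value at -0.08. RPL11 and RPS15A fell beside neighbours at 0.05 and -0.02.

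Most members lay under their neighbours: 72 of 79 did, by a median of 0.15, and 63 of 79 did without knockout replicate 1 in their values. When the neighbour median was taken out within the edgeR fit, 1 member remained called, RPL11 at -0.27 ± 0.06 SE (adjusted p = 0.0294). The neighbour median entered this fit as a fixed value taken from the same libraries. The SE and adjusted p-values of the fit therefore hold no error of the neighbours. In that fit 3.57% of all tested genes were called lower and 3.81% higher. RPL5 was then at -0.08 (adjusted p = 0.423) and RPLP2 at -0.15 (adjusted p = 0.165).

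**Figure D4:**
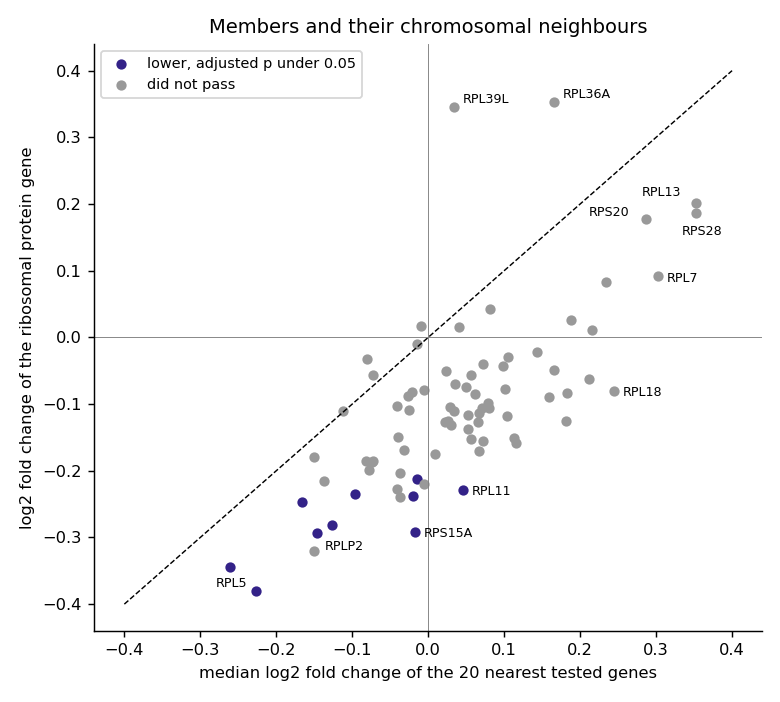
Log2 fold change of each ribosomal protein gene (y axis) against the median of its 20 nearest tested genes (x axis), with members that fell in dark blue and the line of equal values dashed. The points rise together (r = 0.69) and 72 of 79 lie under the line.

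Of 3 tested ribosomal proteins that carry other symbols, 1 fell and 0 rose, and that call was lost with the neighbour median subtracted. Over all tested genes 6.22% were called lower and 5.88% higher, and lists of 3 or 4 genes are too small to set against these shares. FAU and RACK1 did not pass. FAU, whose product yields a small subunit protein, was at 234 ± 9.20 and 236 ± 26.8 CPM (edgeR log2 fold change 0.01 ± 0.09 SE, adjusted p = 0.933). RACK1, a scaffold on the small subunit, was at 923 ± 17.0 and 860 ± 81.0 CPM (-0.10 ± 0.07 SE, adjusted p = 0.396). Of 4 further paralogs, RPL36AL rose, from 135 ± 4.51 to 159 ± 5.01 CPM (0.24 ± 0.06 SE, adjusted p = 0.0356), beside neighbours at 0.24, and the other 3 did not pass. The call was lost without any 1 of the 3 controls, without knockout replicate 2 or 3, with neighbours subtracted and with limma on the deposited values.

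The mitochondrial ribosomal proteins, a separate set that serves translation inside mitochondria, had a median deviation of -0.22 in knockout replicate 1 and medians from -0.03 to 0.08 in the other 5 libraries. Of 77 tested, 8 fell, 1 rose and 68 did not pass, where 6.22% of all tested genes were called lower and 5.88% higher. The median log2 fold change of the 77 was -0.12, or -0.04 without knockout replicate 1. MRPS26 went from 57.7 ± 5.59 to 40.0 ± 4.65 CPM (-0.53 ± 0.11 SE, edgeR adjusted p = 0.013) and MRPL48 from 29.6 ± 0.665 to 22.9 ± 1.35 (-0.37 ± 0.08 SE, adjusted p = 0.0206). MRPL23 (-0.33) and MRPL24 (-0.36) fell as well. The 8 lower calls became 2, 0 and 0 without control replicates 1, 2 and 3, 10, 9 and 0 without knockout replicates 1, 2 and 3, 4 with neighbours subtracted, 0 with limma on the deposited values and 16 with the replicate block. Of all tested genes 12.5% were called lower without knockout replicate 1 and 11.2% with the replicate block. The share was 3.57% with neighbours subtracted and 2.39% with limma on the deposited values. The 1 higher call was lost without any 1 of the controls or without knockout replicate 2 or 3, and became 5 without knockout replicate 1. In that last fit 11.3% of all tested genes were called higher.

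Ribosome biogenesis factors had a median deviation of -0.21 in knockout replicate 1, RNA polymerase I genes -0.18, elongation factors -0.20, hosts of small nucleolar RNAs -0.20, and initiation factors -0.14. Genes of mTORC1, LARP1 and MYC signalling, which control the output of ribosomes, stood at 0.01 in that library, and ribosome quality control genes at -0.09. In knockout replicate 1 the lists of the ribosome and its assembly thus stood low and the list of regulators did not, and the difference between lists was not tested.

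**Figure D5:**
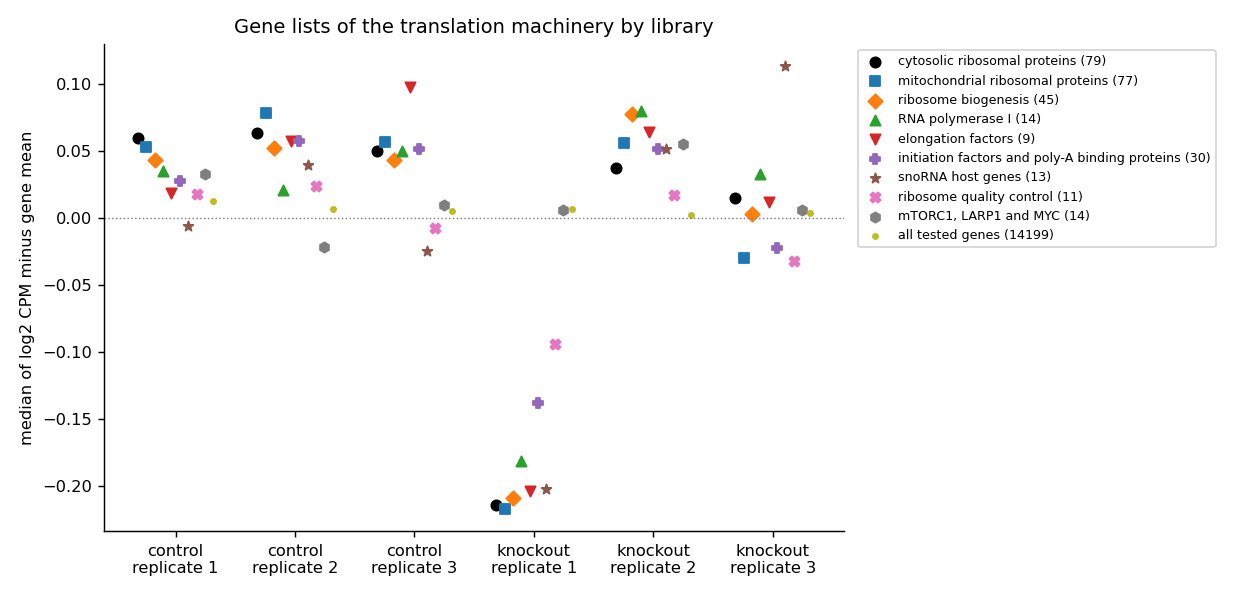
Median over each gene list of log2 CPM minus the gene's mean (y axis) in each library (x axis), with the number of tested genes in the legend. In knockout replicate 1 the cytosolic and mitochondrial ribosomal proteins and the biogenesis genes lie near -0.21, and mTORC1, LARP1 and MYC at 0.01.

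By gene, 2 of 45 biogenesis factors fell and 0 rose: the nucleolar chaperone NPM1, from 1019 ± 28.2 to 808 ± 101 CPM (log2 fold change -0.33 ± 0.09 SE, edgeR adjusted p = 0.0334), and NOP56, a core protein of box C/D particles, from 152 ± 2.45 to 115 ± 13.9 CPM (-0.40 ± 0.09 SE, adjusted p = 0.0182). Among all tested genes 6.22% were called lower and 5.88% higher, so 2 of 45 is no excess of lower calls. No biogenesis factor was higher at an unadjusted p under 0.05. The NPM1 and NOP56 calls were lost without any 1 of the controls and with limma on the deposited values. In the list, 4 were lower without knockout replicate 2 and 1 without knockout replicate 3. Without knockout replicate 1, 3 of the 45 were lower and 4 higher, where 12.5% of all tested genes were called lower and 11.3% higher. Of 14 RNA polymerase I genes TAF1C rose (0.37 ± 0.10 SE, adjusted p = 0.0344) and 0 fell, with 2 lower at an unadjusted p under 0.05. A single higher call among 14 genes lies near the 5.88% of all tested genes. The TAF1C call was lost without any 1 of the controls, without knockout replicate 3, with neighbours subtracted and with limma on the deposited values.

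Of 30 initiation factors and poly-A binding proteins 4 fell and 1 rose, where 6.22% of all tested genes were called lower and 5.88% higher. EIF2S3, the GTP-binding subunit of eIF2, went from 308 ± 7.71 to 222 ± 26.0 CPM (-0.47 ± 0.08 SE, adjusted p = 0.00728), EIF1AX fell by 0.40 and EIF3A by 0.24 on the log2 scale, while the helicase gene EIF4A2 rose by 0.32 ± 0.06 (adjusted p = 0.00947). The lower calls numbered 2, 2 and 1 without control replicates 1, 2 and 3, 5, 3 and 1 without knockout replicates 1, 2 and 3, 2 with neighbours subtracted and 0 with limma on the deposited values. In the fit without knockout replicate 1, 12.5% of all tested genes were called lower. The higher call was lost without control replicate 2 or 3, without knockout replicate 3 and with limma on the deposited values.

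None of 9 tested elongation factors and none of 13 small nucleolar RNA hosts passed in edgeR, DESeq2 or limma-voom, with 1 of the 9 and 2 of the 13 at an unadjusted edgeR p under 0.05. Without knockout replicate 1, 1 elongation factor was lower and 2 hosts were higher, where 12.5% of all tested genes were called lower and 11.3% higher. EEF1A2, an elongation factor form best known from muscle and nerve, stood at 47.4, 45.6 and 46.5 CPM in the controls and at 50.4, 24.86 and 25.02 in the knockouts. Here knockout replicate 1 was above the controls and the other 2 knockouts were far under them (-0.47 ± 0.24 SE, edgeR adjusted p = 0.225, and -0.90 with adjusted p = 1.3e-05 without knockout replicate 1). The growth arrest transcript GAS5, itself a TOP message, was at 46.3 ± 2.28 and 40.6 ± 1.51 CPM (-0.19 ± 0.08 SE, adjusted p = 0.138). Of 14 mTORC1, LARP1 and MYC genes the MYC partner MAX rose (0.31 ± 0.06 SE, adjusted p = 0.0137), and of 11 ribosome quality control genes the ribosome rescue factor HBS1L fell (-0.40 ± 0.08 SE, adjusted p = 0.0158). Single calls in lists of this size lie near the shares of all tested genes, 5.88% higher and 6.22% lower. The MAX call was lost without control replicate 2 or 3, without knockout replicate 3 and with neighbours subtracted. The HBS1L call was lost without control replicate 1 or 2, without knockout replicate 3, with neighbours subtracted and with limma on the deposited values.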

How the data were processed

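Stranded poly-A libraries of 6 MDA-MB-231 samples were used. The submitters' processing notes name FastQC, STAR 2 and GRCh38. The sources used here do not name the counting tool, its strand setting or the annotation. Raw counts of 25330 symbols were deposited, and the authors' deposited log2 CPM table (15066 genes) served only for an alternative. Groups came from the genotype label and replicate numbers from the titles.

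Genes were filtered with filterByExpr (14199 kept), scaled by TMM and tested with edgeR 4.0.16 in R 4.3.3 (quasi-likelihood F test, no covariate, two-sided, Benjamini-Hochberg over all tested genes, threshold 0.05). SE is the log2 fold change divided by the square root of F. Deviations use log2 CPM with a prior count of 2. The script was tested on simulated data. Positions are from RefSeq (14086 of 14199 tested genes matched), and transcripts, the shortest principal one per gene, from GENCODE 29. A library with no count of a gene could still hold up to 3 counts (0.0949 to 0.118 CPM), for counting error only.

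Members and lists were chosen with earlier results of these data known. Some genes that enter the counts and medians are not reported here by name. The 10 gene lists were described by counts and medians. Named genes were all called members, the 3 highest and 3 lowest fold changes, the 5 with the highest CPM, members named by role, the paralogs, and per list up to 4 called genes or the 2 with the smallest p. Alternatives were DESeq2 1.42.0, limma 3.58.1 (voom, and on the deposited log2 CPM), RLE or no factors, scaling without the members, other filters, the replicate block, neighbours subtracted and leaving out each library. Adding pseudogene counts, and leaving out members with shared exons and paralogs, were chosen after seeing the data.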

Additional observations from a re-analysis of the deposited data

How the results depend on the processing

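The median log2 fold change of the ribosomal protein genes was negative under every alternative run, and over the 6 libraries left out in turn it ran from -0.15 to -0.03, the latter without knockout replicate 1. The 10 members that fell became 0 with limma on the deposited log2 CPM (13 lower at an unadjusted p under 0.05) and 1 with the neighbour median subtracted; the cause was not tested. Leaving out single libraries gave 1 to 11 lower and 0 to 5 higher: 3, 2 and 1 lower without control replicates 1, 2 and 3, 11 lower and 5 higher without knockout replicate 1, and 7 and 2 lower without knockout replicates 2 and 3. RPL5 was lower in all 6 of these fits. Of the 6, only the fit without knockout replicate 1 has its share of all tested genes given here, for members and lists alike. Without a filter on low counts 1 member, RPL39L, was higher.

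With the replicate block 17 members were lower, the 10 among them, and 2 higher, while 11.2% and 10.6% of all tested genes were called. Whether same-numbered libraries share more than a label was not tested. Their deviations from the group means correlated at 0.316, 0.139 and 0.086 for replicates 1, 2 and 3. Control replicate 1 was at -0.243 and -0.154 with knockout replicates 2 and 3. Control replicate 3 correlated best with knockout replicate 2 (0.141).

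Directions turned only in genes that had not passed. RPLP1 was at 0.0018 with library size scaling only, 0.0035 without a filter and 0.0056 with neighbours subtracted, and from -0.087 to 0.10 with single libraries left out (0.0064 without control replicate 3, 0.10 without knockout replicate 1). RPL13 (-0.15) and RPL8 (-0.20) turned with neighbours subtracted, RPL8 also without knockout replicates 2 (-0.040) and 3 (-0.026). RPL3 (0.0014, lowest -0.12 without knockout replicate 3) and RPS14 (0.015) turned without knockout replicate 1, and RPL36A (-0.016) with pseudogene counts added. Of 425 values of 25 named members, 343 kept their call, 61 lost it, 9 gained it and 12 turned.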
